A study of Caenorhabditis elegans with 6 samples.

Results

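The fbxb and fbxc genes are 2 of the large F-box gene families of the nematode Caenorhabditis elegans. They were taken here as the rows of a raw count table whose names are fbxb or fbxc followed by a number, which gave 113 fbxb and 55 fbxc rows, 168 of 45836 gene rows. The table holds RNA sequencing counts of 6 libraries from whole L1 larvae. There were 3 libraries of strain BCN6101, which joins the div-1(or148) strain EU548 with a pdaf-21::mCherry reporter, and 3 of strain BCN1050, which has the same reporter in an N2 background and is labelled wild type. or148 is a temperature-sensitive allele of div-1, which encodes part of the polymerase alpha-primase that begins each new DNA strand. Both groups were grown at 20 °C on OP50 bacteria, and their larvae hatched overnight in M9 buffer, which contains no food. The labels call the 3 libraries of a group biological replicates and say nothing of separate cultures, so the p-values measure the spread between these libraries. The series asks which genes change when replication is impaired.

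An F-box protein is the part of an SCF ubiquitin ligase that picks the substrate. It binds a Skp1-related adaptor through its F-box, the adaptor binds the cullin CUL-1, and a second domain of the F-box protein holds the target that is to be marked with ubiquitin. Nematodes have far more F-box genes than mammals. Most of them arose by local duplication and change fast between species, and the fbxa, fbxb and fbxc families are told apart by the domain that follows the F-box. The substrates of most fbxb and fbxc proteins are unknown.

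Libraries held from 25051167 to 27632878 counts each. Levels below are CPM, counts per 1000000 counts after TMM scaling of the gene rows. Of all gene rows, 16289 passed the default expression filter of edgeR, and 146 of these passed its quasi-likelihood test at a Benjamini-Hochberg adjusted p under 0.05, 144 of them higher in the div-1 mutant (0.884% of tested genes) and 2 lower (0.0123%). div-1 itself had 44.8, 29.3 and 31.1 CPM in div-1 larvae, against 24.6, 30.2 and 43.3 CPM in wild-type larvae, and a point allele need not alter this level. Every mutant library was also low in mut-16, a scaffold of the sites where secondary small RNAs are made, with 8.34, 4.66 and 6.56 CPM in div-1 larvae, against 53.5, 51.8 and 50.5 CPM in wild-type larvae (log2 fold change -2.99, adjusted p = 0.002 by edgeR). Effects of the allele and of low mut-16 cannot be told apart. The 3 neuronal, 3 body wall muscle and 3 intestinal markers were present in every library, and the sperm genes msp-3, msp-10 and msp-19 had no count in any. The adult cuticle gene col-19 had 2 to 11 counts per library. The early embryo genes pie-1, skn-1 and mex-5, mostly skn-1, summed to 324.6, 280 and 351.5 CPM in div-1 larvae. In wild-type larvae they summed to 251, 288.6 and 237.7 CPM, with overlap. All 3 had a positive log2 fold change, and none had an unadjusted p under 0.05 by edgeR. The adult yolk genes vit-2, vit-5 and vit-6 summed to 3.19, 4.49 and 4.33 CPM in div-1 larvae, against 1.93, 2.71 and 2.14 CPM in wild-type larvae. The yolk sums did not overlap, and vit-6 was higher at an unadjusted p under 0.05 (adjusted p = 0.459 by edgeR). The part of the embryo and yolk gene levels in the family values was not tested.

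No fbxb or fbxc member passed the test, yet most tested members lay above their wild-type level. Of the 92 fbxb rows that passed the filter, 83 had a positive log2 fold change of mutant over wild type (90.2%), with a median of 0.65. Of the 36 tested fbxc rows, 27 were positive (75%), with a median of 0.35. Over all tested genes 46.0% were positive, with a median of -0.03. Scaled by library size alone, 9669 of the 16289 genes were positive with a median of 0.06, beside 85 fbxb members with a median of 0.74 and 29 fbxc members with a median of 0.44. At an unadjusted p under 0.05, 21 fbxb (22.8%) and 8 fbxc members (22.2%) were higher and none of either family was lower, against 8.26% higher and 2.44% lower among all tested genes. In DESeq2, 2 fbxb and 5 fbxc members were higher at an adjusted p under 0.05 (3.32% of all tested genes) and none was lower (0.0921%), and limma voom called no member (0.823% of tested genes higher). The related fbxa family, with 169 of 222 rows tested, had a median of 0.16 and 110 positive members (65.1%). Of these, 3 were called, against 0.884% of all tested genes called higher. At an unadjusted p under 0.05, 23 fbxa members were higher (13.6%) and 4 lower. All mutant libraries lay above all wild-type libraries in 32 fbxa members (18.9%) and below in 4, against 10.2% and 7.73% of all tested genes. The difference between fbxb and fbxc was not tested, because members of 1 family share sequence and libraries and are not replicates.

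**Figure D1:**
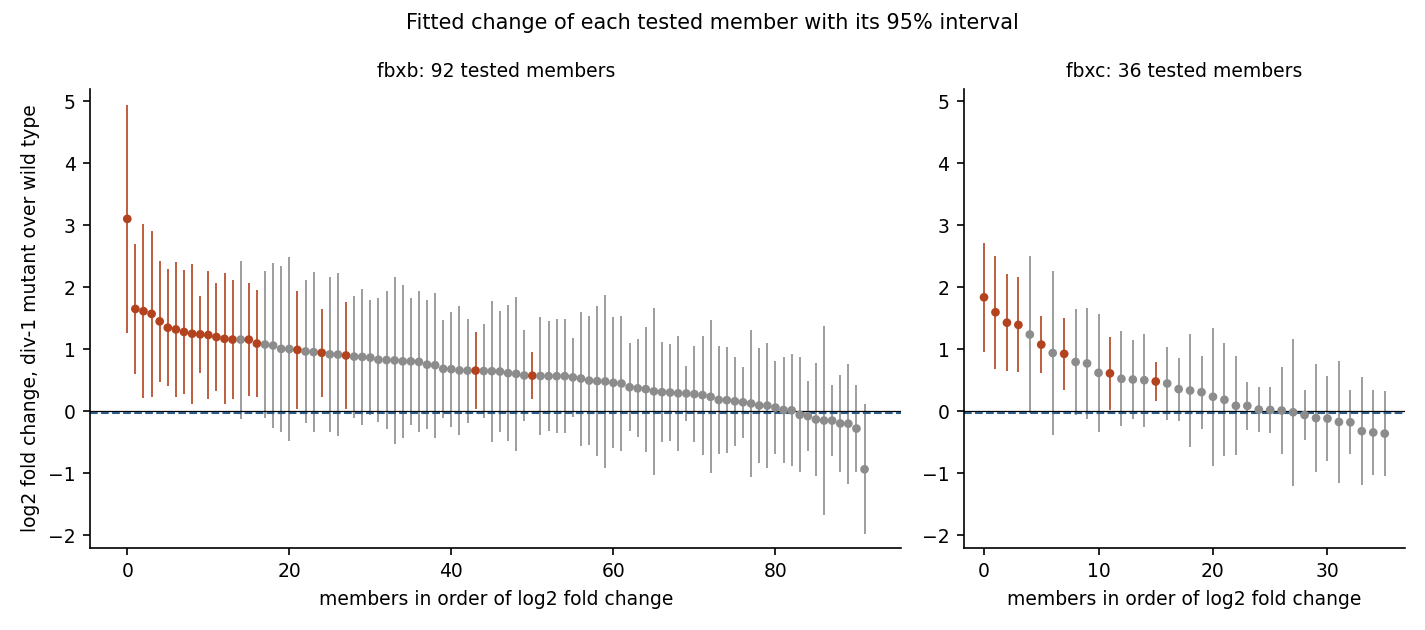
Log2 fold change of div-1 mutant over wild type (y axis) for each tested fbxb (left) and fbxc (right) member, in descending order. Bars are 95% intervals of the edgeR fit, red marks an unadjusted p under 0.05 and the dashed line is the median of all tested genes at -0.03. Of the members, 83 of 92 fbxb and 27 of 36 fbxc lie above 0.

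The 95% interval of the change lay within 2-fold in either direction for 12 of 92 fbxb members (13%) and 12 of 36 fbxc members (33.3%), against 70.5% of all tested genes. The missing calls therefore do not show equal levels, and the interval of 25 fbxb and 6 fbxc members reached beyond 4-fold higher. Filtering removed 21 fbxb rows, with 2 to 68 counts each over the 6 libraries, and 19 fbxc rows, with 0 to 100 counts each. These untested fbxb rows together held 407 counts in div-1 larvae, against 235 in wild-type larvae, and the untested fbxc rows held 302 counts in div-1 larvae, against 131 in wild-type larvae. A low row can pass the filter through the group where it is high. fbxb-21, fbxb-98 and fbxc-22 reached the filter's level in mutant libraries only. Other members without overlap also lay mostly near or below that level in wild-type larvae. Among them are fbxb-2 (3, 10 and 11 wild-type counts), fbxb-16 (8, 7 and 14), fbxb-68 (6, 12 and 8) and fbxc-55 (11, 7 and 7). How many such rows there are was not counted, and they enter the shares of higher members and of all tested genes. Without the filter, the median log2 fold change was 0.62 for fbxb and 0.43 for fbxc.

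Summed over all rows, tested or not, both families overlapped between the groups. The 113 fbxb rows summed to 347, 207 and 229 CPM in div-1 larvae (mean 261 ± 75.5, SD, n = 3), against 121, 193 and 266 CPM in wild-type larvae (mean 194 ± 72.3, n = 3). Wild-type library 3 thus stood above mutant libraries 2 and 3, and wild-type library 1 was the lowest of all. The 55 fbxc rows summed to 468, 338 and 367 CPM in div-1 larvae (mean 391 ± 68.2), against 262, 312 and 419 CPM in wild-type larvae (mean 331 ± 80.5). The spread within each group was larger than the difference between the group means for both families. In a whole animal, fewer cells of a type and less RNA per cell cannot be told apart.

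fbxc was dominated by 1 gene and fbxb was not. fbxc-51 held 30.5% of the fbxc signal averaged over libraries, and the 6 most abundant fbxc rows 65.5%. The most abundant fbxb row, fbxb-88, held 8.26% of its family, and the top 6 held 28.5%. fbxc-51 had 152, 79.2 and 86.5 CPM in div-1 larvae, against 69.9, 95.5 and 177 CPM in wild-type larvae, so the groups overlapped fully (log2 fold change -0.11, adjusted p = 0.941 by edgeR). Without fbxc-51, a subtraction made after its values were seen, the other 54 fbxc rows summed to 316, 259 and 280 CPM in div-1 larvae, against 192, 216 and 243 CPM in wild-type larvae, without overlap. Leaving it out raised the ratio of mutant to wild-type means to 1.31, against 1.18 with it.

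**Figure D2:**
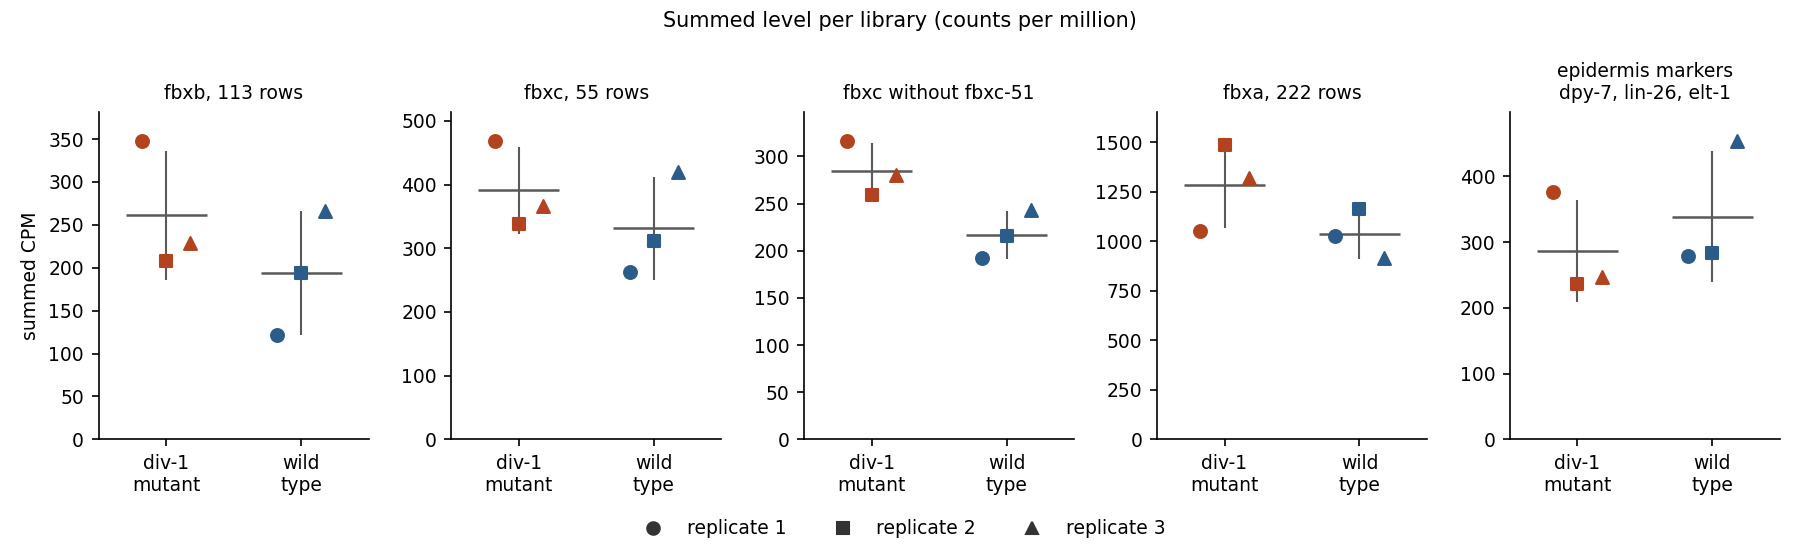
Summed CPM per library (y axis, linear from 0) for all fbxb rows, all fbxc rows, fbxc rows without fbxc-51, all fbxa rows and 3 epidermal markers, in the div-1 mutant (red) and wild type (blue). Symbols are replicate numbers, the horizontal line is the mean and the vertical line the SD (n = 3). fbxb, fbxc and the epidermal markers share a high mutant library 1 and a high wild-type library 3, while fbxa is lowest in these libraries within each group.

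Levels can be set side by side between genes per kilobase of annotated exon. Over the rows with an annotated length, tested or not, the median was 2.62 CPM per kilobase for fbxc (38 rows) and 1.23 for fbxb (all but 9 rows). Rows without a length are left out, among them most fbxc rows with no count and the abundant fbxc-41. Over all rows, not divided by length, the median was 1.56 CPM for fbxc and 1.24 CPM for fbxb. fbxc-51 was highest at 66.9 CPM per kilobase, followed among fbxc by fbxc-36 at 21.4 and fbxc-52 at 16. fbxb-88 led its family at 14.9. The median exon length was 1228 bases for fbxc and 1048 for fbxb. fbxc-36 and fbxc-52 were also among the members whose interval excluded a 2-fold change. fbxc-36 had 25.4, 25.8 and 22.4 CPM in div-1 larvae, against 18.4, 24.2 and 26.6 CPM in wild-type larvae, a fold of 1.06 with a 95% interval of 0.813 to 1.39 (adjusted p = 0.886 by edgeR). fbxc-52 had 26.1, 20.3 and 20.4 CPM in div-1 larvae, against 19.6, 22.4 and 23.7 CPM in wild-type larvae, a fold of 1.02 with an interval of 0.79 to 1.31 (adjusted p = 0.969 by edgeR).

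Within fbxc, a set of members separated the groups completely. Of the 36 tested, 10 had all mutant libraries above all wild-type libraries (27.8%), where 10.2% of all tested genes did, and none had the reverse (7.73% of all tested genes). fbxc-19 came closest to a call. It had 6.69, 6.59 and 6.41 CPM in div-1 larvae, against 3.65, 3.02 and 2.66 CPM in wild-type larvae, a log2 fold change of 1.08 (SE 0.198, adjusted p = 0.0592 by edgeR, DESeq2 adjusted p = 0.000151). Its mutant libraries differed little among themselves, and it passed in edgeR with library size alone as the scaling and without an expression filter. The gene overlaps fbxa-3 and linc-16 in the WBcel235 annotation, and whether counting used strand is not given, so reads of these genes cannot be told apart from its own.

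fbxc-55 had 0.823, 1.4 and 1.39 CPM in div-1 larvae, against 0.451, 0.267 and 0.282 CPM in wild-type larvae, at 23, 34 and 37 counts against 11, 7 and 7. Its log2 fold change was 1.84 (fold 3.58, 95% interval 1.95 to 6.57, adjusted p = 0.0822 by edgeR, DESeq2 adjusted p = 0.01). fbxc-14 had 4.01, 3.26 and 3.88 CPM in div-1 larvae, against 0.738, 1.49 and 1.9 CPM in wild-type larvae. Apart from piRNA genes, a class of small RNA genes not looked at, fbxc-14 overlaps no other annotated gene. Its log2 fold change was 1.43 (adjusted p = 0.121 by edgeR, DESeq2 adjusted p = 0.00389). fbxc-39, which lies in the same gene cluster, had 15.6, 6.26 and 10.4 CPM in div-1 larvae, against 4.06, 3.47 and 4.76 CPM in wild-type larvae, a log2 fold change of 1.40 (adjusted p = 0.124 by edgeR, DESeq2 adjusted p = 0.00448). The mutant libraries of fbxc-39 ranged widely, and those of fbxc-14 did not.

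Of the more abundant fbxc rows, fbxc-41 and fbxc-57 also showed no overlap. fbxc-41 had 48, 46 and 69 CPM in div-1 larvae, against 34.5, 31.6 and 19.6 CPM in wild-type larvae (fold 1.9, 95% interval 1.27 to 2.84, adjusted p = 0.182 by edgeR, DESeq2 adjusted p = 0.0403). fbxc-57 had 21.5, 20.5 and 20.6 CPM in div-1 larvae, against 16.2, 15.3 and 13.3 CPM in wild-type larvae (fold 1.4, interval 1.12 to 1.74, adjusted p = 0.213 by edgeR). Neither name was matched in the annotation used, so their position and length are not given. fbxc-22, at 0.891 ± 0.315 CPM in div-1 larvae, against 0.292 ± 0.0622 in wild-type larvae (SD, n = 3), had a log2 fold change of 1.60 (adjusted p = 0.137 by edgeR). It counts among the fbxc members without overlap and passed the filter through mutant libraries only. fbxc-40, at 35.3, 20.2 and 19.9 CPM in div-1 larvae against 13.3, 14.1 and 25.8 in wild-type larvae, overlapped (log2 fold change 0.50, adjusted p = 0.636 by edgeR). fbxc-32, with 6.69, 8.7 and 7.88 CPM in div-1 larvae against 4.55, 6.83 and 3.79 in wild-type larvae, overlapped and had a log2 fold change of 0.61 (adjusted p = 0.438 by edgeR).

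**Figure D3:**
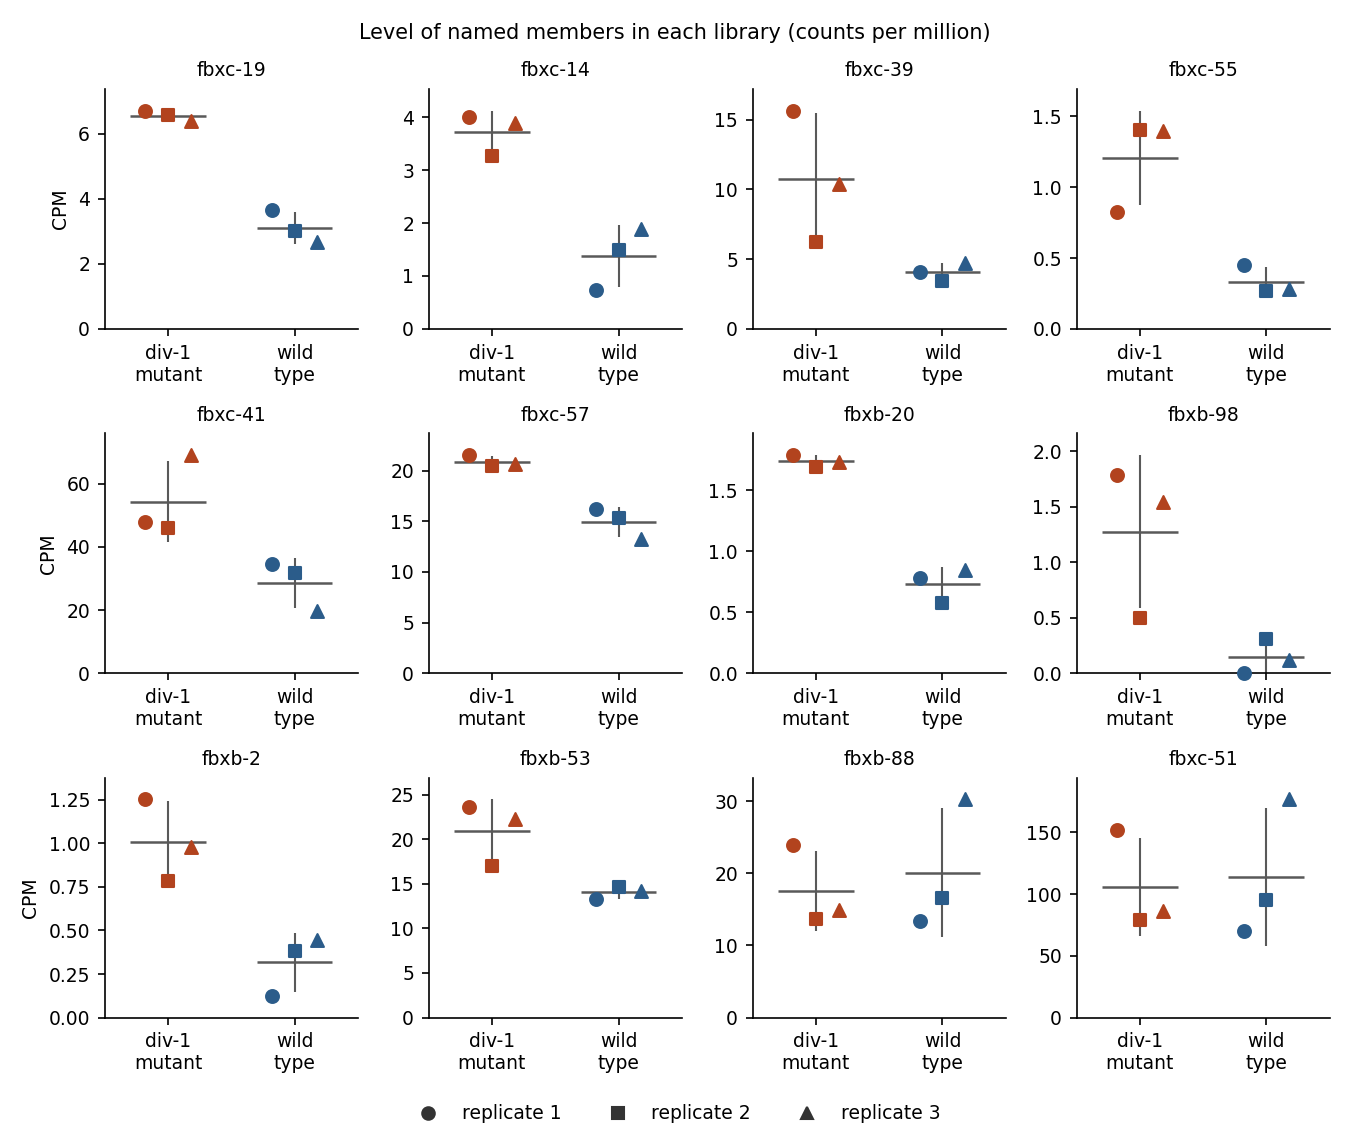
CPM per library (y axis, linear from 0 and different for each gene) of 12 named members in the div-1 mutant (red) and wild type (blue). Symbols are replicate numbers, the horizontal line is the mean and the vertical line the SD (n = 3). The groups do not overlap in the first 10 panels. In fbxb-88 and fbxc-51 the highest library is wild-type library 3, at 30.2 and 177 CPM.

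In fbxb, 22 of the 92 tested members had groups that did not overlap (23.9%), all with the mutant higher, against 10.2% of all tested genes higher and 7.73% lower. Among the 22 are fbxb-21 and fbxb-98, which passed the filter through mutant libraries only. fbxb-20 had the smallest p of the family, with 1.79, 1.69 and 1.73 CPM in div-1 larvae, against 0.779, 0.573 and 0.847 CPM in wild-type larvae. Its log2 fold change was 1.24 (SE 0.268, adjusted p = 0.0906 by edgeR, DESeq2 adjusted p = 0.0188). fbxb-20 overlaps fbxb-16 in the annotation, so a read may be shared between them. fbxb-16 averaged 0.831 ± 0.142 CPM in div-1 larvae, against 0.387 ± 0.157 in wild-type larvae (SD, n = 3; log2 fold change 1.09, adjusted p = 0.331 by edgeR).

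fbxb-98 had the largest fitted change of either family, on few counts, and passed the filter through its mutant libraries only. It had 50, 12 and 41 counts in div-1 larvae, against 0, 8 and 3 in wild-type larvae, or 1.79, 0.495 and 1.54 CPM against 0, 0.305 and 0.121 CPM. The log2 fold change was 3.11, and the interval of the fold ran from 2.41 to 30.7 (adjusted p = 0.157 by edgeR, DESeq2 adjusted p = 0.00682). fbxb-2 had 1.25, 0.783 and 0.98 CPM in div-1 larvae, against 0.123, 0.382 and 0.444 CPM in wild-type larvae, a log2 fold change of 1.65 (adjusted p = 0.187 by edgeR). fbxb-2 and its neighbour fbxb-1 (log2 fold change 1.32, adjusted p = 0.351 by edgeR) both overlap the chemoreceptor gene str-81, so their counts may include its reads. fbxb-71 on chromosome X averaged 1.31 ± 0.291 CPM in div-1 larvae, against 0.474 ± 0.236 in wild-type larvae (log2 fold change 1.45, adjusted p = 0.227 by edgeR).

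fbxb-53 was the most abundant fbxb member without overlap between groups. In the annotation it overlaps the gene F36H5.10, so its counts may include reads of that gene. fbxb-53 had 23.6, 17 and 22.2 CPM in div-1 larvae, against 13.3, 14.7 and 14.2 CPM in wild-type larvae, a fold of 1.49 with a 95% interval of 1.15 to 1.94 (adjusted p = 0.213 by edgeR). fbxb-65, an F-box gene linked to transport by the neuronal kinesin UNC-104, had 3.87, 2.84 and 2.45 CPM in div-1 larvae, against 1.56, 1.99 and 2.26 CPM in wild-type larvae (log2 fold change 0.66, adjusted p = 0.431 by edgeR). The rest of the 21 fbxb members with an unadjusted p under 0.05 are fbxb-11, fbxb-21, fbxb-25, fbxb-26, fbxb-33, fbxb-36, fbxb-46, fbxb-48, fbxb-52, fbxb-61, fbxb-63, fbxb-68 and fbxb-83. Their log2 fold changes ran from 0.90 (fbxb-83) to 1.62 (fbxb-25), with edgeR adjusted p from 0.25 (fbxb-61) to 0.441 (fbxb-83). The groups of fbxb-48 overlapped, and those of the other 12 did not. In fbxb-25, wild-type library 1 stood far below the others, with 40, 26 and 31 counts in div-1 larvae, against 1, 12 and 17 in wild-type larvae.

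Apart from fbxb-53, the 6 most abundant fbxb members had groups that overlapped. fbxb-88 had 23.9, 13.7 and 15 CPM in div-1 larvae, against 13.4, 16.6 and 30.2 CPM in wild-type larvae, a log2 fold change of -0.19 (adjusted p = 0.874 by edgeR). fbxb-66, fbxb-45, fbxb-75 and fbxb-101 likewise overlapped, with log2 fold changes of 0.30, 0.18, 0.09 and 0.10. In each of them, mutant library 1 and wild-type library 3 were the highest of their group. fbxb-75, for example, had 10.7, 5.77 and 5.13 CPM in div-1 larvae, against 3.36, 6.45 and 10.5 CPM in wild-type larvae. Split by mean level, the upper 46 tested fbxb members had a median log2 fold change of 0.56 and the lower 46 one of 0.78.

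Libraries of the same group differed from each other in the same way across many members. Mutant library 1 was the highest of the mutant libraries in 81 of 92 tested fbxb members (88%) and 22 of 36 fbxc members (61.1%), against 42.7% of all tested genes. Wild-type library 3 was the highest of the wild-type libraries in 65 fbxb (70.7%) and 21 fbxc members (58.3%), against 40.7%. Wild-type library 1 was the lowest of all 6 in 82 fbxb members (89.1%) and 17 fbxc members (47.2%), against 15.8%. With each library set against the mean of the other libraries of its group, mutant library 1 and wild-type library 3 both stood above in 80 fbxb (87.0%) and 21 fbxc members (58.3%), against 6354 of all 16289 tested genes. Both stood below in none of the fbxb and 9 of the fbxc members, and in 6329 of all tested genes. Those 9 are fbxc-54, fbxc-30, fbxc-32, fbxc-41, fbxc-7, fbxc-6, fbxc-55, fbxc-23 and fbxc-46. The fbxa genes mostly ran the other way, with 27 of 169 tested members above in both libraries and 92 below in both.

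**Figure D4:**
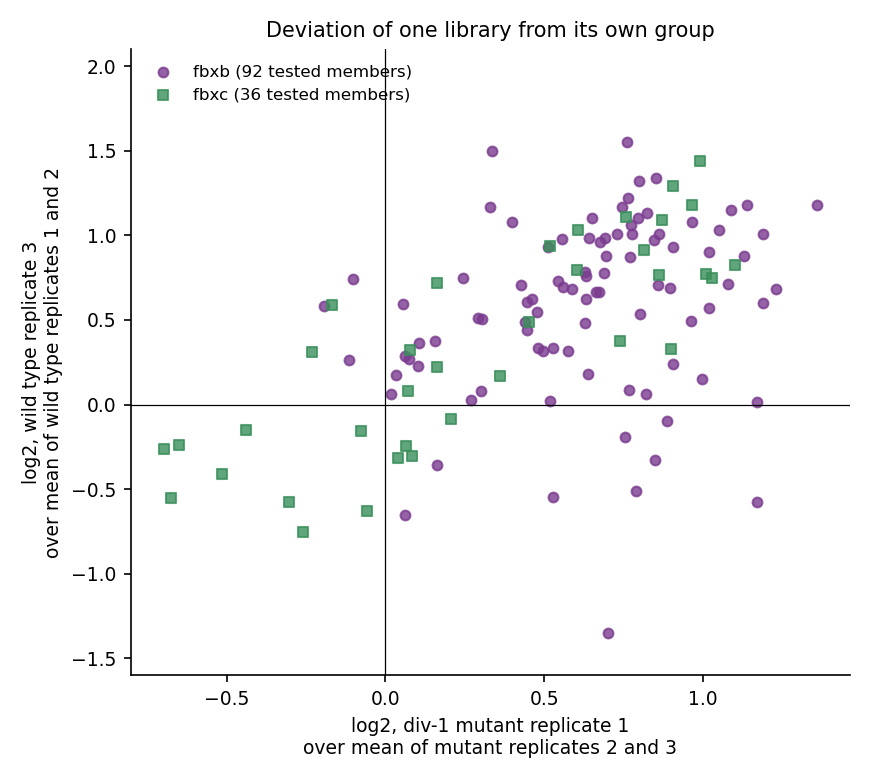
Log2 ratio of mutant library 1 to the mean of mutant libraries 2 and 3 (x axis) against that of wild-type library 3 to the mean of wild-type libraries 1 and 2 (y axis), with 0.1 CPM added, for the tested fbxb (purple circles) and fbxc members (green squares). 80 of 92 fbxb members lie in the upper right, where 6354 of all 16289 tested genes lie, and fbxc members fill the upper right (21) and the lower left (9).

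The same 2 libraries were high in epidermal markers. dpy-7, a cuticle collagen, lin-26 and elt-1 summed to 377, 237 and 246 CPM in div-1 larvae, against 279, 284 and 453 CPM in wild-type larvae, and all 3 genes were highest in mutant library 1 and wild-type library 3 of their groups. Body wall muscle markers summed to 8148, 11640 and 11200 CPM in div-1 larvae, against 9785, 12160 and 8980 CPM in wild-type larvae, lowest in those 2 libraries. The sum is mostly unc-54, and myo-3 was lowest in neither. Neuronal and intestinal marker sums were also lowest in mutant library 1 and wild-type library 3 of their groups, though the intestinal gene elt-2 was not. The pharyngeal sum, mostly myo-2, was lowest in mutant library 1 but not in wild-type library 3. The pharyngeal gene pha-4 was instead highest in mutant library 1 and wild-type library 3 of their groups. It had 131.8, 99.6 and 116.9 CPM in div-1 larvae, against 101.8, 101.5 and 147.9 CPM in wild-type larvae. Germline markers (pgl-1, glh-1 and nos-2) summed to 43.9, 28.2 and 33.5 CPM in div-1 larvae, against 27.7, 30.4 and 36.3 CPM in wild-type larvae. This sum was also highest in mutant library 1 and wild-type library 3 of their groups. The gene nos-2, however, was highest in wild-type library 2 of its group, and pgl-1 was nearly level between wild-type libraries 2 and 3. The part of these marker levels in the fbxb and fbxc values was not tested. Without mutant library 1, 8 fbxb members (8.70%) were higher at an unadjusted p under 0.05, a share close to the 8.17% of all genes tested in that setting, and the fbxb median was 0.36. The fbxc family then had 9 (24.3%) and a median of 0.28. Without wild-type library 1 there were 11 fbxb members (11.2%, median 0.35) and 9 fbxc members (22.5%, median 0.30), against 6.84% of all genes. Without wild-type library 3 there were 36 fbxb (37.1%, median 0.91) and 15 fbxc members (37.5%, median 0.43), against 8.67% of all genes. With both mutant library 1 and wild-type library 3 left out, a setting chosen after seeing the data, there were 18 fbxb (19.6%, median 0.57) and 11 fbxc members (29.7%, median 0.34), against 9.53% of all genes, and no member was called. The median of all genes lay between -0.03 and 0.00 in these settings.

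Many of the genes lie in clusters toward chromosome ends, and cluster medians ran from -0.03 to 1.15. The differences between clusters were not tested. Of the 168 rows, 142 matched 1 gene of the Ensembl annotation, all but 9 of the fbxb rows and 38 of the fbxc rows. fbxb members were on every chromosome, 58 on II, 16 on V, 10 on I, 9 on IV, 8 on III and 3 on X, and fbxc members on II (35) and IV (3). With at most 5 other protein-coding genes allowed between neighbours, 83 members fell into 12 clusters of at least 4. The largest runs from fbxc-51 to fbxb-30, with 19 fbxc and 2 fbxb genes, near the left end of chromosome II. It had 17 tested members with a median log2 fold change of 0.24 and includes fbxc-14 and fbxc-39 beside fbxc-36 and fbxc-51. Further along the same arm, the cluster from fbxb-17 to fbxb-11 holds 9 fbxb and 3 fbxc genes. All 10 tested members were positive, with a median of 1.05, where 46.0% of all tested genes were positive. At an unadjusted p under 0.05, 5 were higher (50.0%), against 8.26% of all tested genes. In all 10, mutant library 1 was the highest mutant library and wild-type library 1 the lowest of all 6. Among all tested genes these shares were 42.7% and 15.8%. This cluster summed to 32.7, 17.6 and 20.1 CPM in div-1 larvae, against 5.86, 14.1 and 14.9 CPM in wild-type larvae, without overlap.

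The 4 genes from fbxb-21 to fbxb-15 were all positive, with a median of 1.15, where 46.0% of all tested genes were positive. They summed to 8.7, 6.43 and 6.26 CPM in div-1 larvae, against 2.62, 3.82 and 5.72 CPM in wild-type larvae. On chromosome V, the 6 tested genes of the cluster from fbxb-117 to fbxb-65 were all positive, with a median of 0.66. Near the right end of chromosome I, the 4 genes from fbxb-93 to fbxb-100 had a median of -0.03, and wild-type library 3 was the highest wild-type library in all 4. They summed to 17, 9.89 and 11.8 CPM in div-1 larvae, against 8.08, 9.54 and 18.9 CPM in wild-type larvae. Neighbours may share sequence, so their counts may not be independent.

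**Figure D5:**
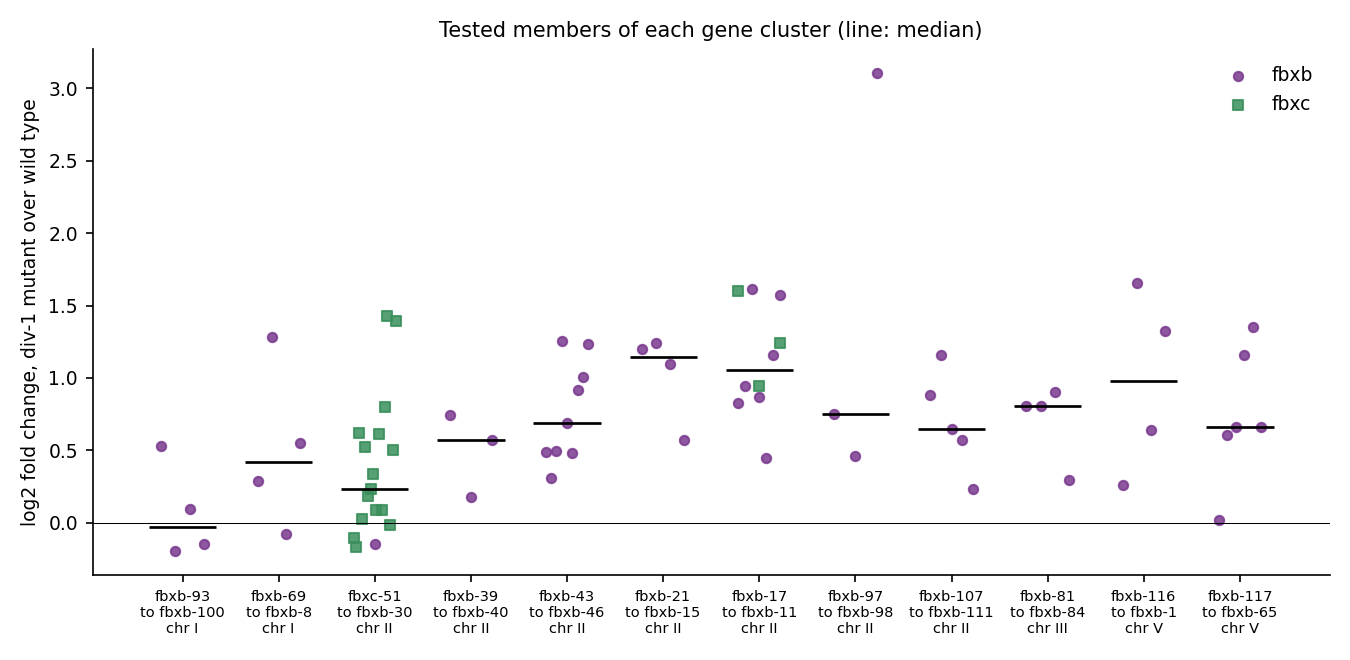
Log2 fold change of div-1 mutant over wild type (y axis) of the tested members of 12 gene clusters, in chromosome order (x axis, named by the first and last gene). Circles are fbxb, squares fbxc and lines the median, which runs from -0.03 on chromosome I to 1.15 for fbxb-21 to fbxb-15 on chromosome II.

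Not every row could measure its gene. 8 fbxc rows had no count in any library, namely fbxc-1, fbxc-2, fbxc-4, fbxc-5, fbxc-9, fbxc-10, fbxc-11 and fbxc-49, and no fbxb row did. The annotation gives the name fbxc-4 to 3 genes, fbxc-5 to 2 and fbxc-8 to 4, so these rows may stand for several copies. Inserts were cut to 18 to 36 bases, and how reads that match several places were treated is not given, so a count of 0 here need not mean that the gene was silent. Among rows under the filter, fbxc-12 had 16, 8 and 9 counts in div-1 larvae, against 1, 1 and 2 in wild-type larvae. fbxb-29 had 16, 9 and 13 counts in div-1 larvae, against 2 in each wild-type library. fbxc-8 had 42, 7 and 31 counts in div-1 larvae, against 6, 7 and 7 in wild-type larvae. These 3 rows were named after their counts were seen and carry no test.

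The other parts of the SCF ligase had medians near or below 0. Of 22 core genes, cul-1, rbx-1 and 20 Skp1-related skr genes, none passed the test in edgeR or DESeq2. At an unadjusted p under 0.05 there were 2 higher (skr-3 and skr-11, 9.09%) and 1 lower (skr-18). Among all tested genes 8.26% were higher and 2.44% lower, so the higher share was near that of all genes. A positive log2 fold change was seen in 8 of the 22 (36.4%, median -0.06, or 0.02 with library size alone), against 46.0% of all tested genes. cul-1, the cullin of the SCF complex, had 78, 68.1 and 67 CPM in div-1 larvae, against 70.6, 72.7 and 69.4 CPM in wild-type larvae (log2 fold change 0.0025, adjusted p = 0.996 by edgeR). The RING protein gene rbx-1 had a log2 fold change of -0.06 (0.03 with library size alone) and the adaptor genes skr-1 and skr-2 of -0.17 and -0.20 (edgeR adjusted p from 0.714 to 0.919). The 12 genes that regulate cullins, by attaching or removing NED-8 or exchanging adaptors, were all negative with a median of -0.19 (4 were positive with library size alone, 2 with upper-quartile scaling), and 1 of them, csn-6, was lower at an unadjusted p under 0.05. The 7 conserved F-box genes found in the table of 8 listed were also all negative (median -0.23), with sel-10 at -0.23 and lin-23 at -0.03, which was positive under those 2 scalings. Of them mec-15 was lower at an unadjusted p under 0.05 (log2 fold change -0.36, adjusted p = 0.404 by edgeR). None of the 19 cullin regulators and conserved F-box genes was called by edgeR or DESeq2.

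The cullin gene cul-6, which acts with skr-3, skr-4 and skr-5 in the response to intracellular pathogens, had 25.6, 22 and 22.5 CPM in div-1 larvae, against 14, 13.1 and 14.8 CPM in wild-type larvae, without overlap. Its log2 fold change was 0.74 (SE 0.137, adjusted p = 0.0596 by edgeR, DESeq2 adjusted p = 0.000352). skr-3 had 71.9, 74.2 and 64.9 CPM in div-1 larvae, against 54.4, 52.9 and 56.4 CPM in wild-type larvae (log2 fold change 0.37, adjusted p = 0.308 by edgeR). skr-4 (log2 fold change 0.27) and skr-5 (0.25) had adjusted p of 0.741 and 0.808 by edgeR. These 4 genes were picked out after their values were seen. skr-21 followed the library pattern of the abundant fbxb genes instead, with 91.6, 54.2 and 48.6 CPM in div-1 larvae, against 46.8, 57 and 124 CPM in wild-type larvae. A low wild-type library 1 was common in the SCF core list. It was the lowest wild-type library in 15 of 22 genes (68.2%), against 30.8% of all tested genes. It was the lowest of all 6 libraries in 8 of them (36.4%), against 15.8%.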

How the data were processed

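The deposited file holds raw counts per feature, whole numbers that the authors did not normalise. The submitters' processing notes name TopHat2 2.1.0, featureCounts 1.5.0 and DESeq2 1.8.1, and the sources used here give no build, annotation or strand setting. Per the labels' protocols, libraries came from a small RNA kit with inserts of 18 to 36 bases. Repeat copies (53925 rows) and reporter parts (13 rows) were left out of library sizes. The 45836 gene rows were fitted in edgeR 4.0.16 (R 4.3.3): TMM, default filter, robust quasi-likelihood fit on group, two-sided test, Benjamini-Hochberg adjustment over 16289 genes. There were 17 alternatives, DESeq2 1.42.0 and limma voom (3.58.1) among them. The edgeR fit was tested on simulated data. Positions and exon lengths came from Ensembl release 115 (WBcel235), matched by name. The members, gene lists and tests were chosen with earlier results of these data known. Named members have an unadjusted p under 0.05, or are among the 6 highest levels or 4 largest changes of a family. cul-1, rbx-1, skr-1, skr-2, lin-23, sel-10, div-1 and mut-16 are named beside them. Counting precision is limited for members of a few counts.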

Additional observations from a re-analysis of the deposited data

How the results depend on the processing

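No fbxb or fbxc member was called in the main fit or in 14 of the 17 alternatives, and no value of a family median changed sign in any. The exceptions were library size alone (1 fbxc member, 213 genes called in all), no expression filter (2 fbxc members, 306 genes, with 14 fbxc members higher at an unadjusted p under 0.05) and DESeq2 (2 fbxb and 5 fbxc members, 556 genes). With 1 library left out, 36 to 116 genes were called (36 without mutant library 3, 42 without wild-type library 1, 46 without wild-type library 2, 71 without mutant library 2), and 8 to 36 fbxb and 8 to 15 fbxc members were higher at an unadjusted p under 0.05. With mutant library 1 and wild-type library 3 both out, 241 genes were called. With a replicate block 52 genes were called, of which none was a member. The deviations of libraries with the same replicate number correlated at -0.26, 0.61 and -0.45 over all tested genes. The largest value of any pair was 0.71, for mutant library 1 with wild-type library 3. The block and the same-number values use the replicate numbers of the sample titles. The library names carry other numbers, under which only the pairs of replicates 2 and 3 stay the same. Whether libraries were paired is therefore not settled. The causes were not tested. Of the 128 tested members, 41 changed sign in at least 1 alternative, from log2 fold changes between -0.32 and 0.49, and none of these 41 was called in any setting. For cul-1 the log2 fold change was -0.0061 with RLE factors, -0.022 without a filter, -0.00066 with the replicate block, -0.085 with both libraries out, -0.0060 in DESeq2 and -0.00075 in limma voom. For lin-23 it was 0.021 with upper-quartile factors and 0.058 with library size alone, and for rbx-1 it was 0.034 with library size alone. For fbxc-52 it was -0.0014 without a filter and -0.048 with both libraries out, where fbxc-51 was at 0.0030. With 1 library left out, the log2 fold change ranged from -0.072 to 0.046 for cul-1, -0.12 to 0.034 for lin-23, -0.13 to 0.048 for rbx-1, -0.11 to 0.35 for div-1, -0.49 to 0.22 for fbxb-88, -0.17 to 0.60 for fbxb-45, -0.32 to 0.55 for fbxb-75, -0.21 to 0.63 for fbxb-101, -0.46 to 0.35 for fbxc-51, -0.056 to 0.20 for fbxc-36 and -0.11 to 0.086 for fbxc-52. Of the values of named genes under alternatives, 734 kept direction and side of the threshold, 10 passed it newly and 35 changed sign. Both few counts and the spread between libraries widen a member's interval, and their shares were not tested.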
